A study of Mus musculus with 6 samples.

Results

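The genes described here carry growth signals from outside the cell to protein synthesis: the ligand gene Egf, the receptor genes Egfr, Igf1r and Igf2r, the kinase genes Akt1, Mtor and Rps6kb1, the adaptor gene Rptor and the translation repressor gene Eif4ebp1. They were listed as signals that could act on the size of chromaffin cells, which make and release adrenaline and noradrenaline. All probe sets (groups of short probes that read 1 gene) whose only symbol was 1 of these 9 genes were taken. This gave 28 probe sets for 8 of the 9 genes, of 45037 probe sets and 18193 named genes on the array. No probe set in the tables used here is named for Rps6kb1 alone, so it has no value.

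RNA came from adrenal medulla that was microdissected from 12 µm cryosections, and each array held RNA from both medullae of 1 male C57/Bl6 mouse. The 3 TAC mice had undergone transverse aortic constriction, in which a tie around the aortic arch raises the pressure the left ventricle works against, and the 3 sham mice the sham operation. Both groups were sampled 8 weeks after surgery, and the age of the mice is not given in the sources used here. Dissected medulla holds vessels, connective tissue, glia, nerve and some cortex beside chromaffin cells, so that fewer cells of a type and less RNA per cell cannot be told apart.

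Epidermal growth factor (EGF) binds the EGF receptor, and the insulin-like growth factors bind the IGF-1 receptor. Both receptors are tyrosine kinases that activate phosphoinositide 3-kinase (PI3K) and then the kinase Akt1. The IGF-2 receptor has no kinase; it takes up IGF-2 for breakdown and carries lysosomal enzymes to the lysosome. Akt releases the kinase mTOR from its inhibition by the TSC proteins. Together with Raptor, the product of Rptor, which holds the substrates, mTOR forms the complex mTORC1, and this complex phosphorylates S6 kinase (Rps6kb1) and 4E-BP1 (Eif4ebp1). Phosphorylated 4E-BP1 lets go of the cap-binding protein eIF4E, and translation starts. Much of this control is by phosphorylation, which arrays of RNA do not measure.

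The sequences before the annotated start were found for 7 of the 9 genes in RefSeq's promoter table (GRCm38.p6). Eif4ebp1 had no entry there, and Rps6kb1 had none at the annotated end of the gene. In the 250 bases before the start, the 7 genes held from 0 to 42 CG pairs, against a median of 6 over 32841 promoters of that length. The promoters of Egf and Igf1r are printed because these were the genes whose arrays did not overlap between the groups on a tested probe set, and they lie at opposite ends of that range. Capitals mark CG pairs in both. The Egf stretch, chr3:129755323-129755572 on the minus strand, has none, as have 7.86% of all promoters. The Igf1r stretch, chr7:67952007-67952256 on the plus strand, has 42, more than 99.1% of promoters. The Igf2r stretch, chr17:12769707-12769956 on the minus strand, is printed because it holds TCACGTGA, the core of the CLEAR element of lysosomal genes, here in capitals. The factor TFEB, which binds CLEAR elements, is a known substrate of mTORC1.
Egf: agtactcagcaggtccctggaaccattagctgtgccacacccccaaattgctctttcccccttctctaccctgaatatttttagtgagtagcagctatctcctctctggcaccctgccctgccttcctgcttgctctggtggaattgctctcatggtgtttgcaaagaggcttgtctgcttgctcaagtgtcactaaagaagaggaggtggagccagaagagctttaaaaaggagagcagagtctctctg
Igf1r: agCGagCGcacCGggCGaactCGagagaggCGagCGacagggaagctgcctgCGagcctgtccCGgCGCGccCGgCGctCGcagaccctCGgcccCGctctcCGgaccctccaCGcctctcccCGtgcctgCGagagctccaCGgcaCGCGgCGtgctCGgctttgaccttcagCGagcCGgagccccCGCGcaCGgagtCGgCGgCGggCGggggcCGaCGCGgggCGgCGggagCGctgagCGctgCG
Igf2r: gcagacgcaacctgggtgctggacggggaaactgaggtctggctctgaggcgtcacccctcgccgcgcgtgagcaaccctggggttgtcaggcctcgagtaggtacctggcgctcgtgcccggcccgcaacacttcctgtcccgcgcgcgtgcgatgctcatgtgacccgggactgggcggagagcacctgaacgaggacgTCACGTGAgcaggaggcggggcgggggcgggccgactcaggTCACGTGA
The Igf2r stretch holds this motif 2 times, once ending 41 bases before the start and once directly before it. The motif, which reads the same on both strands, was found in 1 of the 7 genes and in 0.786% of all promoters. The GC box GGGCGG, searched on both strands, was found in 4 of the 7 (Egfr, Igf1r, Igf2r and Mtor) and in 32.7% of all promoters. These matches describe the letters in these windows and are not binding sites.

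Chromaffin markers were abundant on all 6 arrays, with a mean log2 level from 12.0 to 12.8 over the 13 of 14 listed genes that were measured. Adrenal cortex markers varied most, from 6.65 to 9.23 after TAC and from 6.66 to 10.5 after sham over 8 of 14 genes, while Nr5a1, Nr0b1, Mc2r and Cyp11b2 stayed below the level of detection used here. Gapdh is read by control probe sets at its 3′ and 5′ ends, and the gap between them (3′ minus 5′, log2) grows as RNA is shortened. This Gapdh difference was largest in sham 1 (5.15) and TAC 1 (4.71). The other 4 arrays lay apart by group, with 3.67 on TAC 2 and 3.98 on TAC 3. Sham 2 read 3.08 and sham 3 read 2.88. An exact 2-sided permutation test of the Gapdh difference between the groups over all 6 arrays gave p = 0.6 (with 3 against 3 arrays the smallest possible p is 0.1). For Actb, read in the same way, the difference was 6.83, 4.58 and 5.69 after TAC and 7.93, 3.31 and 3.93 after sham. Both measures lay above 0 on all 6 arrays, so the gap was not confined to sham 1 and TAC 1.

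TAC and sham were compared to find which growth signals differ in level in the medulla under pressure overload. Egf lay higher on every TAC array than on any sham array, Igf1r lay lower on both of its tested probe sets, and the other tested members overlapped between the groups. Of the 28 probe sets, 10 reached log2 4 on at least 3 of the 6 arrays and were tested, at least 1 for each of 8 genes. None of the 10 passed an adjusted p of 0.05 in limma (2-sided, Benjamini-Hochberg over 18188 probe sets), and 0% of all tested probe sets did, so no member is called changed. At an unadjusted p under 0.05 there were 2 of 10, Egf and 1 probe set of Igf1r, against 6.94% of all tested probe sets. By direction, 1 of the 10 was higher, against 4.65% of all, and 1 of the 10 lower, against 2.29%. The groups did not overlap at 3 of the 10, against 13.0% of all, with TAC above sham at 1 (9.01% of all) and below at 2 (4.01%). The count of 2 fell to 0 without TAC 1 and also without sham 2, and to 1 without TAC 2, TAC 3 or sham 3. Over all tested probe sets the count was 1263, and it fell too. It was 1174 without TAC 1, 641 without sham 2, 1218 without TAC 2, 695 without TAC 3 and 773 without sham 3.

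The differences of the 10 probe sets, TAC minus sham on the log2 scale, ran from -0.76 to 0.75 with a median of 0.10. All tested probe sets had a median of 0.05. Of the 10, 7 lay above 0, and this count was 8 after quantile normalization, 5 after cyclic loess and 7 when the median of each array was subtracted. Of all tested probe sets 54.7% lay above 0. The 95% intervals of the members reached from -1.44 to 1.68, with a median half-width of 0.66, and are not adjusted for the number of probe sets. Changes of less than about that size were thus not resolved for a typical member. The largest differences, -0.76 and 0.75, exceeded it and still did not pass the adjusted threshold.

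**Figure D1:**
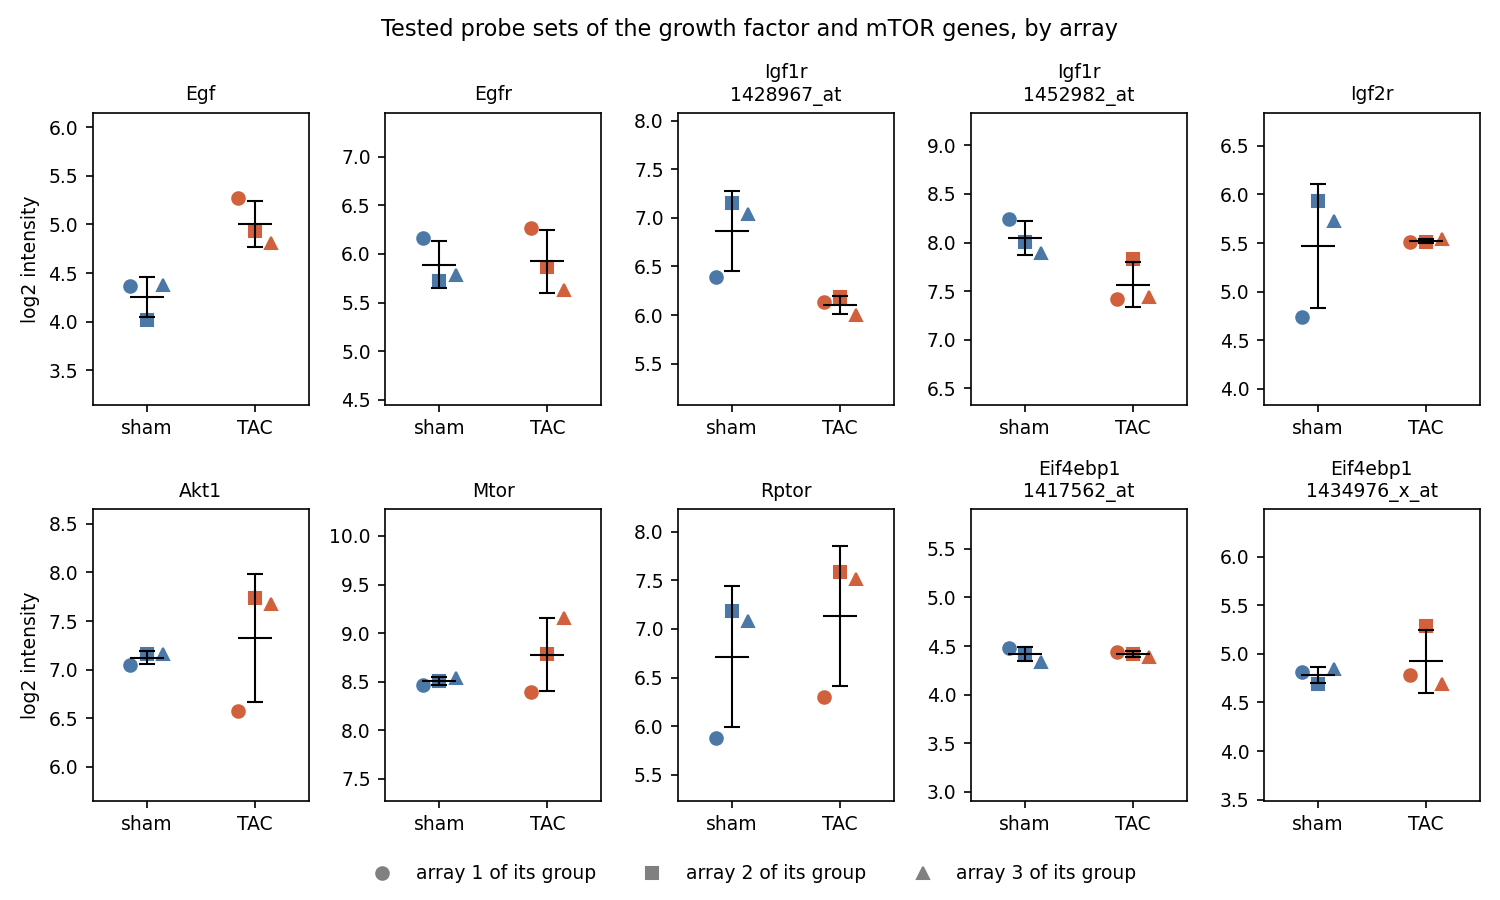
Log2 intensity (vertical axes, each spanning the same number of log2 units) of the 10 tested member probe sets on the 3 sham and 3 TAC arrays, with the mean (line) and SD (bars) of each group. Egf lies higher on all TAC arrays and both Igf1r probe sets lower, while the other panels overlap. TAC 1 lies apart from TAC 2 and TAC 3 for Akt1 and Rptor, and sham 1 from sham 2 and sham 3 for Rptor.

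Egf encodes the precursor of EGF, the ligand that gives the family its name. It read 5.27, 4.94 and 4.81 on the TAC arrays and 4.37, 4.02 and 4.38 on the sham arrays. All TAC values lay above all sham values, and the sham values lay close to the filter at log2 4. The means were 5.01 ± 0.24 (SD, n = 3) after TAC and 4.26 ± 0.20 (n = 3) after sham, 1.68-fold higher with a 95% interval of 1.11 to 2.55. The difference of 0.75 ± 0.25 (SE) exceeded the spread within each group but did not pass over all probe sets (limma adjusted p = 0.607). It lay between 0.62 and 0.85 when each array was left out in turn. With the Gapdh difference as a covariate it was 0.70 (limma adjusted p = 0.153), and with the cortex marker mean as a covariate it was 0.78 (adjusted p = 0.999).

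Egfr encodes the receptor that EGF binds. Its tested probe set read 6.27, 5.87 and 5.63 after TAC and 6.17, 5.72 and 5.79 after sham. The groups overlapped fully, and the first array of each group read highest. The difference was 0.03 ± 0.27 (SE, n = 3 per group, limma adjusted p = 0.998), with a 95% interval from -0.63 to 0.70, and it was -0.04 after cyclic loess. The other 6 Egfr probe sets stayed below the filter, with 1 value above log2 4 among them, 4.09 on TAC 2.

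Igf1r encodes the kinase receptor of IGF-1 and IGF-2. Probe set 1428967_at read 6.13, 6.18 and 6.01 after TAC and 6.39, 7.15 and 7.04 after sham. All TAC values lay below all sham values, with sham 1 the closest to them. The means were 6.11 ± 0.09 (SD, n = 3) and 6.86 ± 0.41 (n = 3), 1.69-fold lower after TAC, a difference of -0.76 ± 0.28 (SE, limma adjusted p = 0.681; 95% interval -1.44 to -0.07). Probe set 1452982_at read 7.42, 7.83 and 7.44 after TAC and 8.24, 8.01 and 7.89 after sham. Again no TAC value reached a sham value, with TAC 2 and sham 3 the nearest to each other. The difference was -0.48 ± 0.24 (SE, limma adjusted p = 0.809; 95% interval -1.07 to 0.11). Both tested probe sets of the gene thus pointed the same way, by 1.69-fold and 1.40-fold, and both stayed lower with every array left out in turn, at -0.99 to -0.61 and -0.61 to -0.38. With the cortex marker mean as a covariate the differences were -0.75 (limma 95% interval -1.58 to 0.09) and -0.49 (-1.22 to 0.24). With the Gapdh difference as a covariate they were -0.64 (-1.11 to -0.17) and -0.51 (-1.03 to 0.02). Without sham 1 and TAC 1, the difference of 1452982_at shrank to -0.31 (-0.98 to 0.35), outside its range above. That of 1428967_at grew in size (-1.58 to -0.42). The probe sets share the 6 arrays and are not independent replicates.

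Markers of other cell types were read beside Egf and Igf1r, and in each list the ranges of the groups overlapped. The mean log2 level of the 7 of 8 fibroblast markers measured was 6.12 to 7.41 after TAC and 7.05 to 8.51 after sham, a difference of -1.21 (exact 2-sided permutation p = 0.2), and 6 of the 7 were lower. The eighth, Fbln1, was below the filter. Endothelial markers, 4 of 8 measured, read 5.56 to 6.74 after TAC and 5.81 to 6.85 after sham (difference -0.34, exact permutation p = 0.5). Of the others, Pecam1, Cdh5, Kdr and Tie1 were below the filter. Differences above 0 were found for sustentacular and Schwann cell markers (0.37, 6 of 8 genes, TAC 6.24 to 7.34, sham 6.19 to 6.80, exact permutation p = 0.4), and for smooth muscle and pericyte markers (0.28, 5 of 8 genes, TAC 7.45 to 8.27, sham 7.52 to 7.83, exact permutation p = 0.4). Macrophage markers differed by 0.18 (6 of 9 genes, TAC 6.80 to 8.26, sham 6.50 to 7.91, exact permutation p = 0.8) and chromaffin markers by 0.05 (exact permutation p = 0.8). In every list some genes lay higher and others lower. Of the endothelial genes, Tek (-1.17) and Emcn (-1.28) were lower, and Eng (0.72) and Plvap (0.38) higher. Of the smooth muscle and pericyte genes, Notch3 (1.24), Pdgfrb (0.81) and Acta2 (0.44) were higher, and Rgs5 (-0.92) and Tagln (-0.16) lower. The sham mean of Notch3, 3.38, and the TAC mean of Emcn, 3.43, lay under log2 4. The part of these cell types in the Egf and Igf1r differences was not tested.

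Igf2r encodes the receptor that clears IGF-2 and sorts lysosomal enzymes. Its tested probe set read 5.51, 5.51 and 5.54 after TAC and 4.74, 5.94 and 5.73 after sham. The TAC arrays lay close together and between the sham values, of which sham 1 was the lowest. The difference was 0.05 ± 0.36 (SE, n = 3 per group, limma adjusted p = 0.998), and it became -0.31 without sham 1. A second Igf2r probe set, 1424112_at, read 3.47, 2.58 and 2.18 after TAC and 3.69, 4.22 and 4.08 after sham. Its groups did not overlap, but 2 of the 6 arrays reached log2 4, fewer than the 3 the filter asks for, so it was not tested. With values under 4 set to 4 its difference was -0.10. A further probe set, named for both Airn, the antisense RNA of the imprinted Igf2r locus, and Igf2r, read between 2.96 and 3.67 on all arrays and was not counted as a member.

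Akt1, Mtor and Rptor lead from PI3K to the growth-controlling complex, and their TAC arrays were uneven, as were the sham arrays of Rptor. Akt1, which encodes a kinase activated downstream of both growth factor receptors, read 6.57, 7.73 and 7.68 after TAC and 7.04, 7.16 and 7.16 after sham. TAC 2 and TAC 3 lay above all sham arrays and TAC 1 below all of them. The difference was 0.20 ± 0.37 (SE, n = 3 per group, limma adjusted p = 0.985; 95% interval -0.69 to 1.10). It was 0.58 without TAC 1, 0.03 without TAC 3 and 0.00035 without TAC 2.

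Mtor, the gene of the kinase itself, read 8.40, 8.78 and 9.16 after TAC and 8.47, 8.51 and 8.54 after sham. The sham arrays lay close together (SD 0.038), with TAC 1 just below them and TAC 2 and TAC 3 above. The difference was 0.27 ± 0.27 (SE, n = 3 per group, limma adjusted p = 0.969; 95% interval -0.38 to 0.92), 0.46 without TAC 1 and 0.08 without TAC 3.

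Rptor, whose product presents substrates to mTOR, read 6.30, 7.59 and 7.51 after TAC and 5.88, 7.19 and 7.08 after sham. Sham 1 and TAC 1 lay below the other 4, and the Gapdh difference was largest on the same arrays. The difference was 0.42 ± 0.52 (SE, n = 3 per group, limma adjusted p = 0.980; 95% interval -0.84 to 1.68). With the Gapdh difference as a covariate it was 0.70 ± 0.26 (adjusted p = 0.212), without both arrays 0.42 ± 0.21 (adjusted p = 0.451), and without sham 1 alone -0.00054. It was 1.02 without TAC 1 and sham 3, the arrays with the most cortex signal in each group (adjusted p = 0.974).

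**Figure D2:**
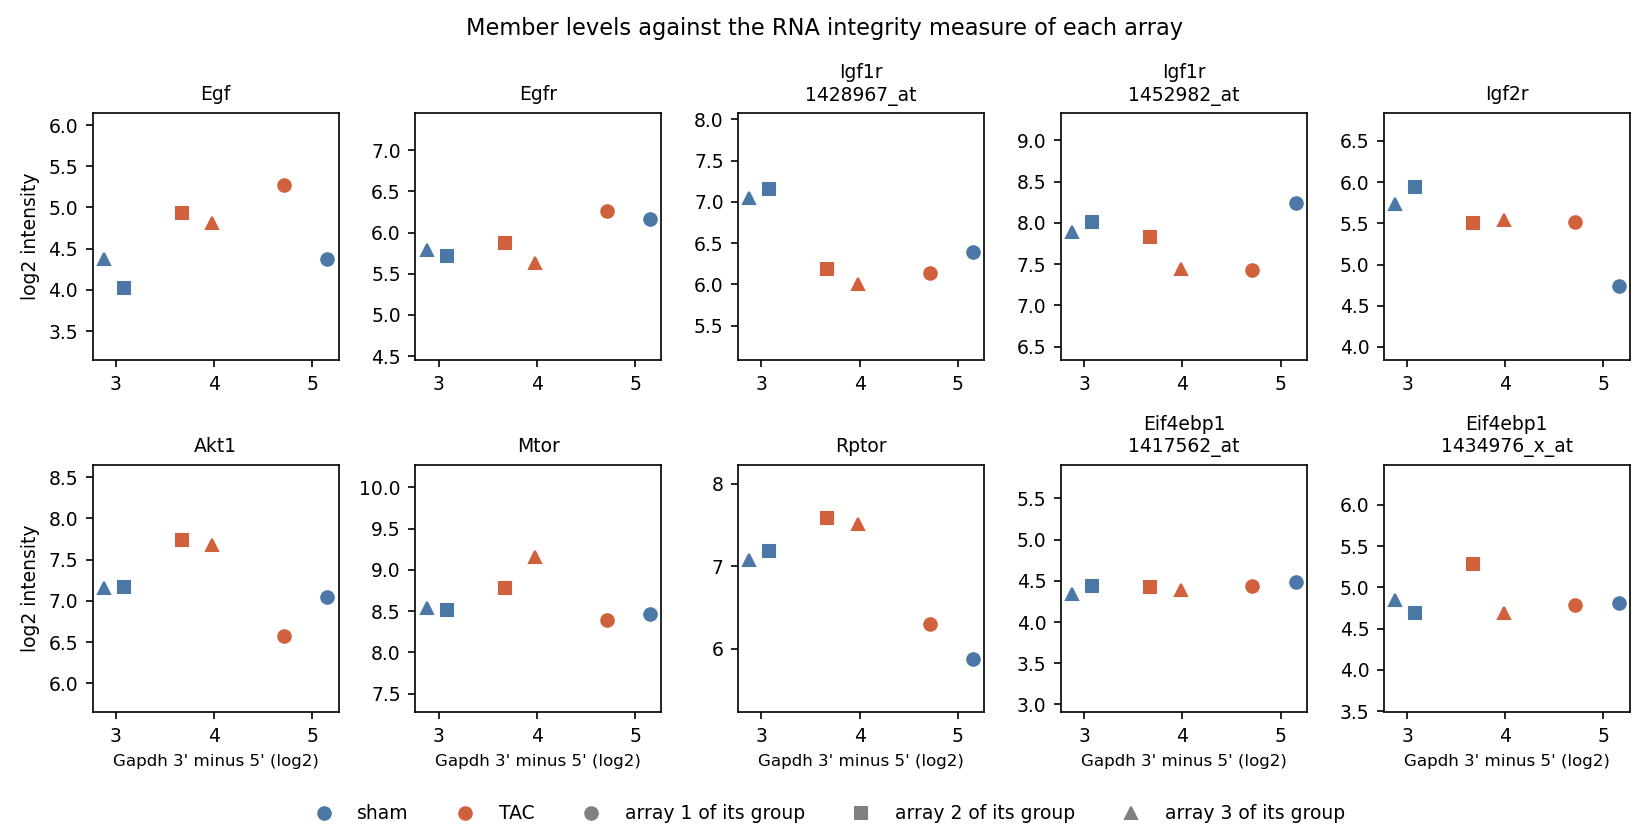
Log2 intensity of the 10 tested member probe sets (vertical axes) against the Gapdh difference, 3′ minus 5′ in log2 units (horizontal axes) on the 3 sham and 3 TAC arrays. Rptor is lowest on the arrays with the largest difference, sham 1 at 5.15 and TAC 1 at 4.71, and Igf2r is lowest on sham 1. The groups of Egf and Igf1r do not overlap, so they lie apart whatever the horizontal axis shows.

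Eif4ebp1 encodes 4E-BP1, the repressor that mTORC1 releases from eIF4E. Probe set 1434976_x_at read 4.78, 5.29 and 4.69 after TAC and 4.81, 4.69 and 4.84 after sham, so that TAC 2 alone lay above the sham arrays. The difference was 0.14 ± 0.25 (SE, n = 3 per group, limma adjusted p = 0.985), and -0.04 without TAC 2. Its suffix x marks probes that can also bind other transcripts. Probe set 1417562_at lay between 4.34 and 4.48 on all 6 arrays, with a difference of -0.00021 ± 0.20 (SE, limma adjusted p = 0.9998). Both lay close to the filter, and the remaining Eif4ebp1 probe set was below it.

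**Figure D3:**
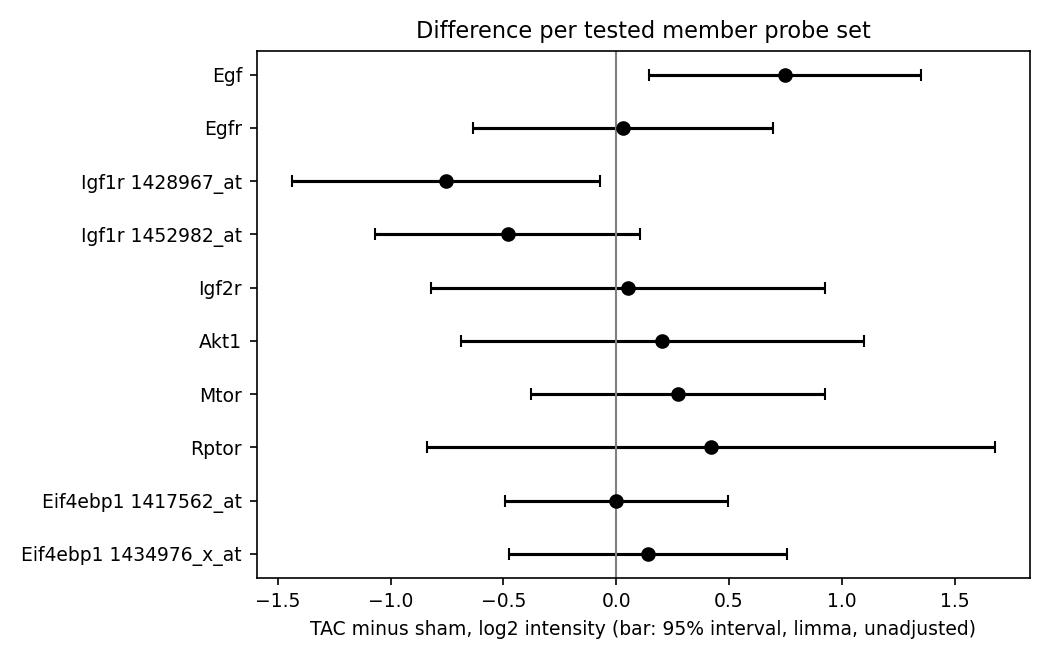
Difference between TAC and sham (horizontal axis, log2 intensity) for each of the 10 tested member probe sets, with the unadjusted 95% interval of the limma fit (bars). The intervals of Egf (from 0.15) and of Igf1r probe set 1428967_at (up to -0.07) do not include 0, and the other 8 do.

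When each array was weighted by its agreement with the others (limma array weights), 4 of the 10 member probe sets passed. They were Egf (0.63, limma adjusted p = 0.0229), both of Igf1r (-1.06, adjusted p = 0.00500, and -0.49, adjusted p = 0.0258) and Mtor (0.57, adjusted p = 0.0303). With these weights 6698 of 18188 probe sets passed as well. TAC 3 had a weight of 6.11, against 0.396 for TAC 1 and 0.357 for TAC 2, and sham 1 had 0.143, so the TAC side of these values rests mostly on a single array.

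Of the 28 member probe sets, 18 from 7 genes did not reach the filter, and all 7 also have a tested probe set. Among these 18, 15 lay below log2 4 on every array, and Igf2r probe set 1424112_at was the only one whose groups did not overlap. The share without overlap among all probe sets below the filter was not counted. The lowest reading was 1.62 and the highest 4.22. They are listed here as values only, since readings this low carry little information on the gene.

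The other genes of these pathways were taken from a list of 89 genes by role, with the probe set of the highest mean standing for each gene. Of these, 63 were tested, 21 stayed below the filter and 5 had no probe set named for them alone. None of the 63 passed (limma, adjusted p under 0.05), as 0% of 10181 tested genes did. At an unadjusted p under 0.05 there were 6 of 63, or 9.52%, against 7.29% of all tested genes. The groups did not overlap for 9 of the 63, or 14.3%, against 14.2% of all. Both shares are near those of all genes. By direction, TAC lay above sham without overlap for 6 of the 63 (11.6% of all genes) and below for 3 of the 63 (2.59%). The count of 6 at an unadjusted p under 0.05 was 3 without TAC 3, where that of all tested probe sets was 695 in place of 1263. The median difference was -0.08, against 0.09 for all tested genes, and 30 genes were higher and 33 lower, while 58.7% of all tested genes were higher. With the Gapdh difference as a covariate the median was 0.19. Leaving out TAC 1 gave 0.20, leaving out sham 2 gave 0.14 and leaving out sham 3 gave 0.10 (0.25 without sham 3 and TAC 1), so its sign turned with single arrays.

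At an unadjusted limma p under 0.05, 5 of the 63 genes were higher after TAC, against 6.14% of all tested genes. Lower was 1 of the 63, against 1.15%. Flcn, whose product folliculin acts on the Rag GTPases at the lysosome, read 11.75, 11.90 and 11.63 after TAC and 10.56, 10.98 and 10.92 after sham. The groups did not overlap, and the difference was 0.94 ± 0.24 (SE, n = 3 per group, limma adjusted p = 0.475), with 0.43 on its other probe set. The probe set that stands for Flcn has the suffix x, so its probes can also bind other transcripts. Eif4ebp2, the gene of a second 4E-BP repressor, read 4.68, 5.52 and 5.32 against 3.96, 4.10 and 4.39, all TAC values higher, a difference of 1.03 ± 0.30 (SE, adjusted p = 0.555). Pdcd4, whose product inhibits the helicase eIF4A and is degraded after phosphorylation by S6 kinase, differed by 0.89 ± 0.26 (10.4 ± 0.10 against 9.52 ± 0.33, SD, adjusted p = 0.551). Foxo1, a transcription factor gene whose product Akt keeps out of the nucleus, differed by 0.84 ± 0.29 (adjusted p = 0.633), with 0.25 and 0.12 on its other probe sets.

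Poldip3, whose product SKAR is a substrate of S6 kinase at spliced RNA, differed by 0.49 ± 0.20 (SE, n = 3 per group, limma adjusted p = 0.717). This value also comes from an x probe set. Its other 4 tested probe sets differed by 0.13, -0.08, -0.24 and 0.33, with both signs. Pdpk1, the gene of the kinase PDK1 that activates Akt and S6 kinase, was the lower gene of the 6. It read 6.69, 7.20 and 5.97 after TAC and 8.14, 7.60 and 7.78 after sham, without overlap, a difference of -1.23 ± 0.37 (SE, adjusted p = 0.560). Its other probe set differed by -0.16.

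By role, the ligands and binding proteins of the IGF system had 1 of 6 higher and 5 lower (median -0.26), the lowest being Igfbp3, which binds IGFs in the circulation, at -0.67 ± 0.57 (SE). The adaptors and PI3K genes had 6 of 13 higher (median -0.16), Akt, the TSC genes and Akt targets 5 of 7 (median 0.33), and the other mTOR complex genes 2 of 6 (median -0.16). Lysosome and nutrient genes had 8 of 16 higher (median -0.04), and translation targets 5 of 10 (median 0.06). Each of these groups had 0 genes past the adjusted threshold. Rps6, the ribosomal protein that S6 kinase phosphorylates, differed by -0.07, and Insr, the insulin receptor gene, by 0.05.

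**Figure D4:**
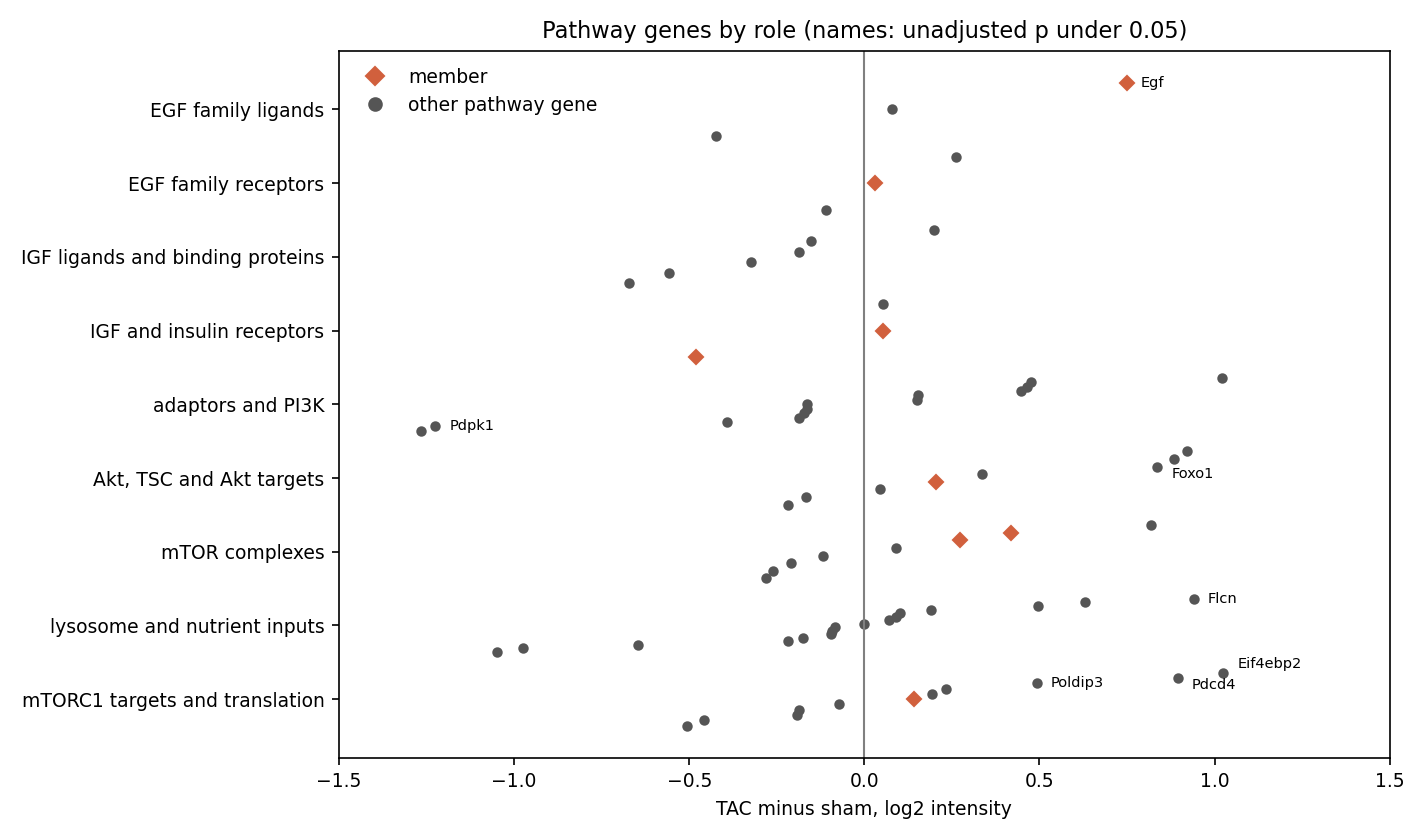
Difference between TAC and sham (horizontal axis, log2 intensity) for the 8 measured members (diamonds) and 63 other pathway genes (circles), each by its probe set of highest mean, arranged by role in rows. Genes with an unadjusted p under 0.05 are named, Egf among the members and 6 others, and in most roles points lie on both sides of 0.

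The gene most like each member over the 6 arrays was taken by Pearson's r, as a description. It was Tmem176a for Egf (r = 0.999), Hdgf for Egfr (0.981), Eif3a for Igf1r (0.982) and Rdm1 for Igf2r (0.980). For the signalling genes it was Gnas for Akt1 (0.995), Zfp287 for Mtor (0.987), Ms4a6d for Rptor (0.999) and Stxbp4 for Eif4ebp1 (0.992). Over all 10181 genes the median of the highest r was 0.996, so values this high are usual when 6 arrays and 10180 other genes are searched.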

How the data were processed

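Arrays of the type Mouse Genome 430 2.0 were run on 6 samples, 3 TAC and 3 sham. The deposited intensity values are linear and positive, and the submitters' processing notes name GCRMA. No version or setting of it is given in the sources used here. Median intensity ran from 9.15 to 10.9 over the arrays, so the deposited columns were not on 1 common distribution. Values were taken to log2 and used without further scaling. Of 45101 probe sets, 64 controls were left out, and 18188 reached log2 4 on at least 3 of 6 arrays. GEO's platform annotation named 34945 probe sets with 1 symbol, 932 with several and 9160 with none. TAC and sham were compared in limma 3.58.1 (R 4.3.3, lmFit and eBayes, 4 residual degrees of freedom), and the fit was checked on simulated data. The simulated noise was independent between probe sets and had the same spread on every array. The check therefore does not cover arrays of unequal quality or deviations that probe sets share. Replicates are separate animals, and their number limits the precision. No build is named for the values. The only coordinates given are those of the printed promoters, which follow RefSeq's promoter table (GRCm38.p6).

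The members and the gene lists were chosen with earlier results of these data known. Named are all members, the other pathway genes at an unadjusted p under 0.05, and for each member the gene most like it. Genes outside this rule were chosen after their values were seen. Alternatives covered the scaling between arrays, the filter, values near the floor, array weights, the replicate number, covariates for RNA integrity and cortex, and leaving out arrays.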

Additional observations from a re-analysis of the deposited data

How the results depend on the processing

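No member probe set and no other pathway gene passed an adjusted p of 0.05 in limma under any alternative but array weights, where 4 of 10 and 25 of 63 did, with 6698 of all 18188. The count of all probe sets at an unadjusted p under 0.05 was 1263. It was 2110 without a filter, 8749 with array weights, 3843 with the Gapdh covariate, 806 with the cortex covariate and 641 (without sham 2) to 2429 (without sham 1) with single arrays left out. For the members this count was 2. It was 1 with arrays centred on their medians, when a mean of at least log2 6 was required (5 probe sets left) and with the cortex covariate, 5 with array weights, and 0 to 2 with single arrays left out. It rose to 3 without a filter and to 3 with the Gapdh covariate. For the 63 pathway genes it was 6. It was 30 with array weights, 16 with the Gapdh covariate and 3 to 9 with single arrays left out. Alternatives added after seeing the data left out sham 1 and TAC 1, the arrays of largest Gapdh difference, which gave 2507 probe sets and 11 pathway genes. The Gapdh difference of the remaining TAC arrays was still above that of the remaining sham arrays. Leaving out sham 3 and TAC 1, the arrays of most cortex signal, gave 640 probe sets, 0 members and 1 pathway gene. The causes were not tested.

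The median member difference was 0.10, -0.018 with array weights, and ran from 0.03 to 0.18 with single arrays left out, and that of the pathway genes, -0.08, from -0.22 to 0.20. Egf, Igf1r, Akt1 and Mtor kept their direction under every alternative run. Egfr (0.032) reversed to -0.042 after cyclic loess, -0.084 with array weights, -0.064 with the Gapdh covariate, -0.0031 without sham 1 and TAC 1, and -0.19 without sham 3 and TAC 1, and ran from -0.14 to 0.18 with single arrays left out. Igf2r (0.052) reversed to -0.0077 after cyclic loess, -0.26 with array weights and -0.31 without sham 1 and TAC 1, and ran from -0.31 to 0.29. Rptor ran from -0.00054 to 0.83. Eif4ebp1 probe set 1434976_x_at was -0.042 with array weights and ran from -0.043 to 0.26. Probe set 1417562_at, at -0.00021, was 0.053 after quantile normalization, 0.0068 with array weights and 0.020 without sham 1 and TAC 1, and ran from -0.041 to 0.033.

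With the replicate number of the labels as a block, 3005 probe sets and 12 pathway genes had an unadjusted p under 0.05, and 0 passed the adjusted threshold. The labels do not say that a number marks a shared litter or day, so the numbers were not taken to pair the samples. Same-numbered arrays deviated together from their group means for numbers 1 (r = 0.76) and 2 (r = 0.78) but not 3 (r = -0.22). TAC 2 and sham 3 also deviated together (r = 0.71). Deviations within a group of 3 arrays sum to 0, so these r values depend on each other and cannot decide on pairing.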

Other observations

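The PI3K regulatory subunit gene Pik3r1 was chosen after its values were seen. Its probe set of highest mean differed by -1.27 ± 0.52 (SE, n = 3 per group, limma adjusted p = 0.718), with overlapping groups. Probe set 1425514_at read 3.92, 3.84 and 3.22 after TAC and 6.05, 5.89 and 4.59 after sham. It passed the filter through the 3 sham arrays alone, so its values are given as a description. Eif4a1, which encodes the helicase that unwinds messenger RNA for translation and was also chosen after its values were seen, read lower on all 3 tested probe sets, at -0.51, -1.38 and -1.68, with limma adjusted p-values of 0.750, 0.775 and 0.600. Igf1, the ligand gene of the receptor Igf1r, was chosen in the same way and differed by -0.19 and -0.60 on its tested probe sets, with adjusted p-values of 0.989 and 0.706.

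Gsk3b, a kinase gene inhibited by Akt and chosen after its values were seen, was read at 0.88, 0.50, -0.16 and -2.76 by 4 tested probe sets. On probe set 1437001_at, the lowest of these, the TAC arrays read 6.27, 6.08 and 4.06 and the sham arrays 8.01, 8.87 and 7.82, without overlap (difference -2.76 ± 0.66 SE, n = 3 per group, limma adjusted p = 0.465). The regulatory PI3K subunit gene Pik3r2, chosen in the same way, read 6.31, 6.41 and 6.14 after TAC and between 5.83 and 5.85 on the sham arrays (difference 0.45, adjusted p = 0.776).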
